A study of Drosophila melanogaster with 12 samples.

Results

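The addition of cycloheximide, an inhibitor of protein synthesis, to larval organs cultured with the steroid hormone 20-hydroxyecdysone (20E) was examined by comparing 3 arrays of organs treated with 20E plus cycloheximide with 3 arrays of organs treated with 20E, which are 6 of the 12 arrays of the study. The organs came from Drosophila melanogaster larvae of the third instar, which were wandering and had partly blue guts (a dye in the food stages them), and the study's methods give w1118 as the strain used for its arrays. All cultures were held for 1 hour in Schneider's medium under oxygen and then treated for 6 hours at 25 °C in fresh medium: the 20E group with 5 µM 20E, the 20E plus cycloheximide group with 5 µM 20E and 85 µM cycloheximide, the cycloheximide group with 85 µM cycloheximide, and the no hormone group with neither. Each well held the dissected organs of 8 animals, so a value averages over many organs, and the cultures of a group were made in triplicate and harvested separately. The 3 arrays of cycloheximide and the 3 arrays of no hormone were used for the same question in the absence of added hormone, and share no array with the main comparison.

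20E acts through a heterodimer of the ecdysone receptor EcR and Ultraspiracle, which binds DNA and activates a small set of early genes, many of which encode transcription factors. Early genes respond without new protein, whereas the later, secondary-response genes need the proteins that the early genes encode, and some early proteins in turn repress the early genes. Cycloheximide stops translation elongation, and is used to separate both classes. It is also known to raise some short-lived transcripts in cells that received no hormone.

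Each intensity below is a linear dChip value of 1 probe set, and limma was fitted to the log2 values of all 12 arrays. A call needed a change of 1.3-fold or more together with an adjusted p (Benjamini-Hochberg) below 0.10. The array medians lay between 114 and 118, and no further scaling was applied. Within each group no array was a copy of another. Of 53 marker genes, 0 were called in either direction by limma. The markers were those of fat body, salivary gland, midgut, muscle, nervous system, testis, blood cells, and epidermis and trachea. SAM, the permutation-based statistic named in the study's methods, also called 0. At an unadjusted p under 0.05 in limma, 6 markers were lower and 0 higher, beside 1947 of all 13966 probe sets in either direction. The summed level of each of the 8 marker lists overlapped between both groups. Markers of salivary gland summed to between 38960 and 42825 on the 20E arrays and to between 39991 and 46044 with cycloheximide added, those of fat body to between 19966 and 23129 and between 19561 and 22144, and those of testis to between 2973 and 4150 and between 2417 and 4177. Salivary gland and fat body markers were thus bright in both groups, whereas testis, blood cell, muscle and nervous system each had 1 marker with a mean under 50. In such mixed organs a change in the number of cells of a type and a change in RNA per cell cannot be told apart.

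Cycloheximide raised 137 probe sets in 20E-treated organs (0.981% of 13966 tested) and lowered 141 (1.01%). Of the increases, 30 were at least 2-fold, against 14 of the decreases. The largest increases were those of Osi2, a gene of the insect-specific Osiris family, and of E(spl)mbeta-HLH, a Notch-regulated repressor. The largest decreases with a gene name were those of the antibacterial peptides CecA2 and CecA1 and of the glutathione transferases GstD5 and GstD2. All 137 increases and 140 of the 141 decreases had no overlap between the arrays of one group and those of the other, which held for 18.0% of all probe sets. The median log2 fold change of all probe sets was -0.005, with 48.2% of them above 0 and a median SE of 0.09. The calls depended on single arrays: 59 of the 137 increases and 28 of the 141 decreases remained called whichever of the 6 arrays was left out. Without 20E replicate 3 there were 68 increases and 52 decreases, and without 20E plus cycloheximide replicate 3 there were 82 and 33. Without 20E plus cycloheximide replicate 1 there were 78 decreases, without 20E replicate 2 there were 60, and without 20E plus cycloheximide replicate 2 there were 246.

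**Figure D1:**
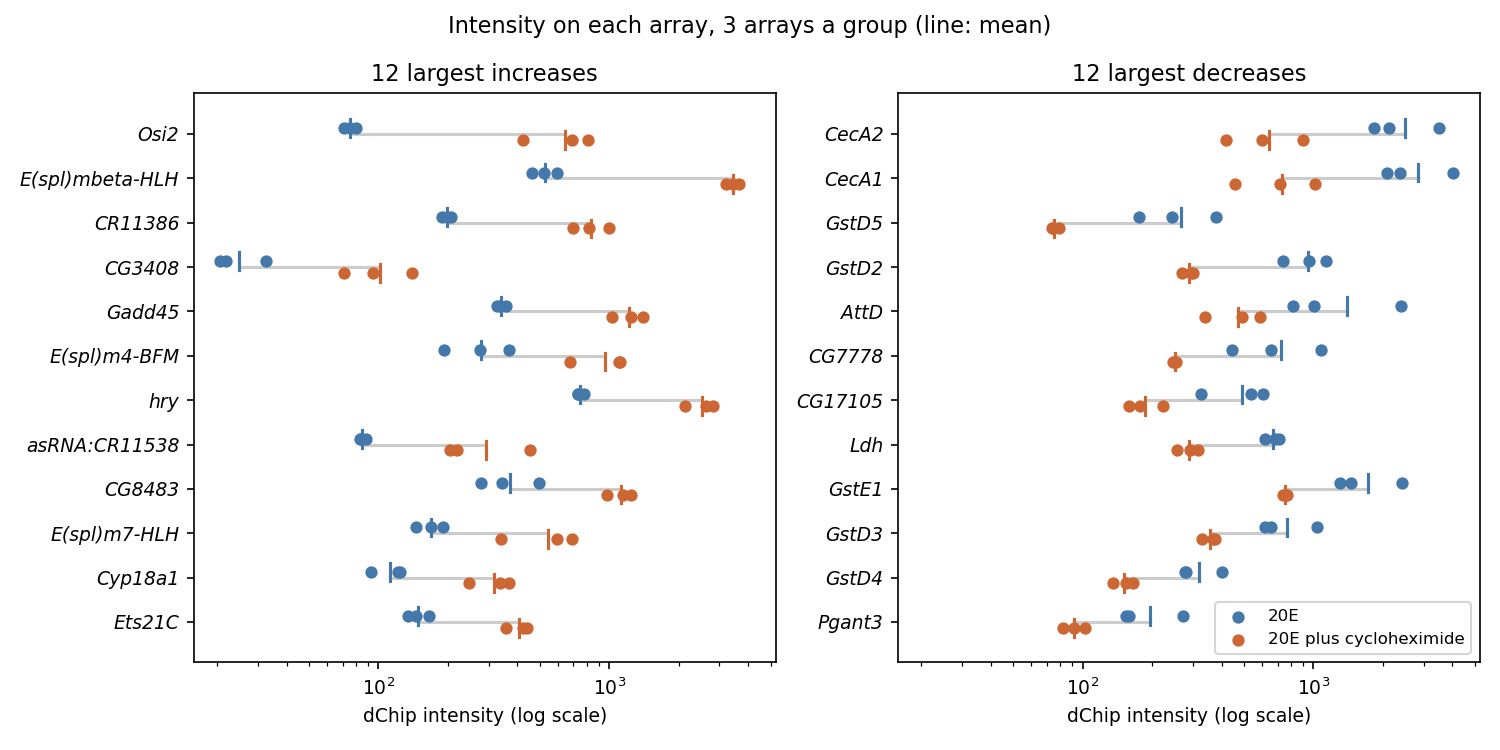
Intensity (log axis) on each of the 3 arrays treated with 20E (blue) and with 20E plus cycloheximide (orange) for the 12 largest increases and the 12 largest decreases with 1 gene name, short vertical lines marking group means. A lack of overlap between the arrays of both groups was a condition for choosing these 24 rows. Osi2 lies between 71.2 and 80.1 on the 20E arrays and between 423 and 813 with cycloheximide added.

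Early ecdysone regulators were raised by cycloheximide in part. Of 19 measured genes of this list, 8 rose (42.1%, beside 0.981% of all probe sets) and 0 fell. Their median log2 fold change was 0.35 over the 19, and 6 of the 8 remained called whichever array was left out. The list was chosen with results of these arrays known, and is no independent evidence of its direction. The lists were compiled by known function, and a gene named beyond the 4 members of a list with the smallest adjusted p was chosen after its values were seen.

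Cyp18a1, a cytochrome P450 that inactivates 20E, was measured at 121, 92.7 and 124 with 20E and at 247, 367 and 335 with 20E plus cycloheximide, a 2.80-fold increase (log2 fold change 1.49 ± 0.19 (SE), adjusted p = 0.00296). With neither agent it lay at 38.3 ± 1.03 (SD, n = 3), and with cycloheximide alone at 35.6 ± 9.31 (SD, n = 3), so only the arrays with 20E were above 50. Blimp-1, which encodes a transcriptional repressor that times the prepupal response, had intensities of 196, 251 and 205 with 20E and of 426, 525 and 587 with both, a 2.35-fold increase (log2 fold change 1.24 ± 0.12 (SE), adjusted p = 3.90e-04). Its levels without hormone were 172 ± 5.22 with neither agent and 163 ± 10.3 with cycloheximide (SD, n = 3), both below every array of organs treated with 20E. Eip75B, an ecdysone-induced nuclear receptor of an early puff, was at 725, 749 and 682 with 20E and at 1175, 1489 and 1396 with both (1.87-fold; log2 fold change 0.91 ± 0.11 (SE), adjusted p = 0.00261). Its means without hormone were 483 and, with cycloheximide, 484. For these 3 genes the difference between the effect of cycloheximide with 20E and without it was itself called, by 1.62 ± 0.27 for Cyp18a1, 1.32 ± 0.17 for Blimp-1 and 0.90 ± 0.16 for Eip75B on the log2 scale (SE; adjusted p = 0.0867, 0.0239 and 0.0942, limma). The call for Blimp-1 remained in 11 of the 12 fits with 1 array left out, whereas those for Cyp18a1 and Eip75B remained in 4 and 3.

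A pair of other regulators had a like order of levels. vri, a basic leucine zipper repressor that also acts in the circadian clock, was at 337, 377 and 308 with 20E and at 596, 966 and 647 with both (2.12-fold; log2 fold change 1.08 ± 0.15 (SE), adjusted p = 0.00469), against means of 208 with no hormone and 262 with cycloheximide. All 3 arrays with both agents lay above the highest 20E array, with replicate 2 well above its replicates. Hr4, a nuclear receptor of the same hierarchy, was at 185, 202 and 182 with 20E and at 244, 269 and 273 with both (1.38-fold; log2 fold change 0.47 ± 0.08 (SE), adjusted p = 0.0175), against 123 and 116 without hormone. A second, dim probe set of Hr4 was not called, at means of 27.1 and 30.1. The difference between both effects was not called for vri or Hr4 (adjusted p = 0.209 and 0.137).

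Other early genes also rose with cycloheximide, hry and cbt whether or not 20E was present. hry (hairy), a pair-rule repressor of the basic helix-loop-helix class, was at 729, 774 and 735 with 20E and at 2131, 2618 and 2814 with both, a 3.36-fold increase (log2 fold change 1.75 ± 0.12 (SE), adjusted p = 3.09e-05). Its mean without hormone was 577, and 1334 with cycloheximide, so the inhibitor raised it in both settings. cbt (cabut), a zinc finger transcription factor, was at 519.7, 569 and 491 with 20E and at 1251, 1361 and 1377 with both (2.53-fold; log2 fold change 1.34 ± 0.10 (SE), adjusted p = 5.18e-05), against means of 225 and 649 without hormone. Kr-h1, a zinc finger factor downstream of juvenile hormone and 20E, was at 69.6, 71.5 and 55.2 with 20E and at 135, 147 and 90.8 with both (1.87-fold; log2 fold change 0.91 ± 0.18 (SE), adjusted p = 0.0314), and its call was lost without 20E replicate 3 or without 20E plus cycloheximide replicate 1. Mes2 (1.72-fold, from a mean of 62.9 to 109) and brat, a translational repressor (1.46-fold, from 468 to 671), also rose. The call for brat (adjusted p = 0.0798) remained only without 20E replicate 2, and the second probe set of Mes2 was not called at log2 0.56.

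**Figure D2:**
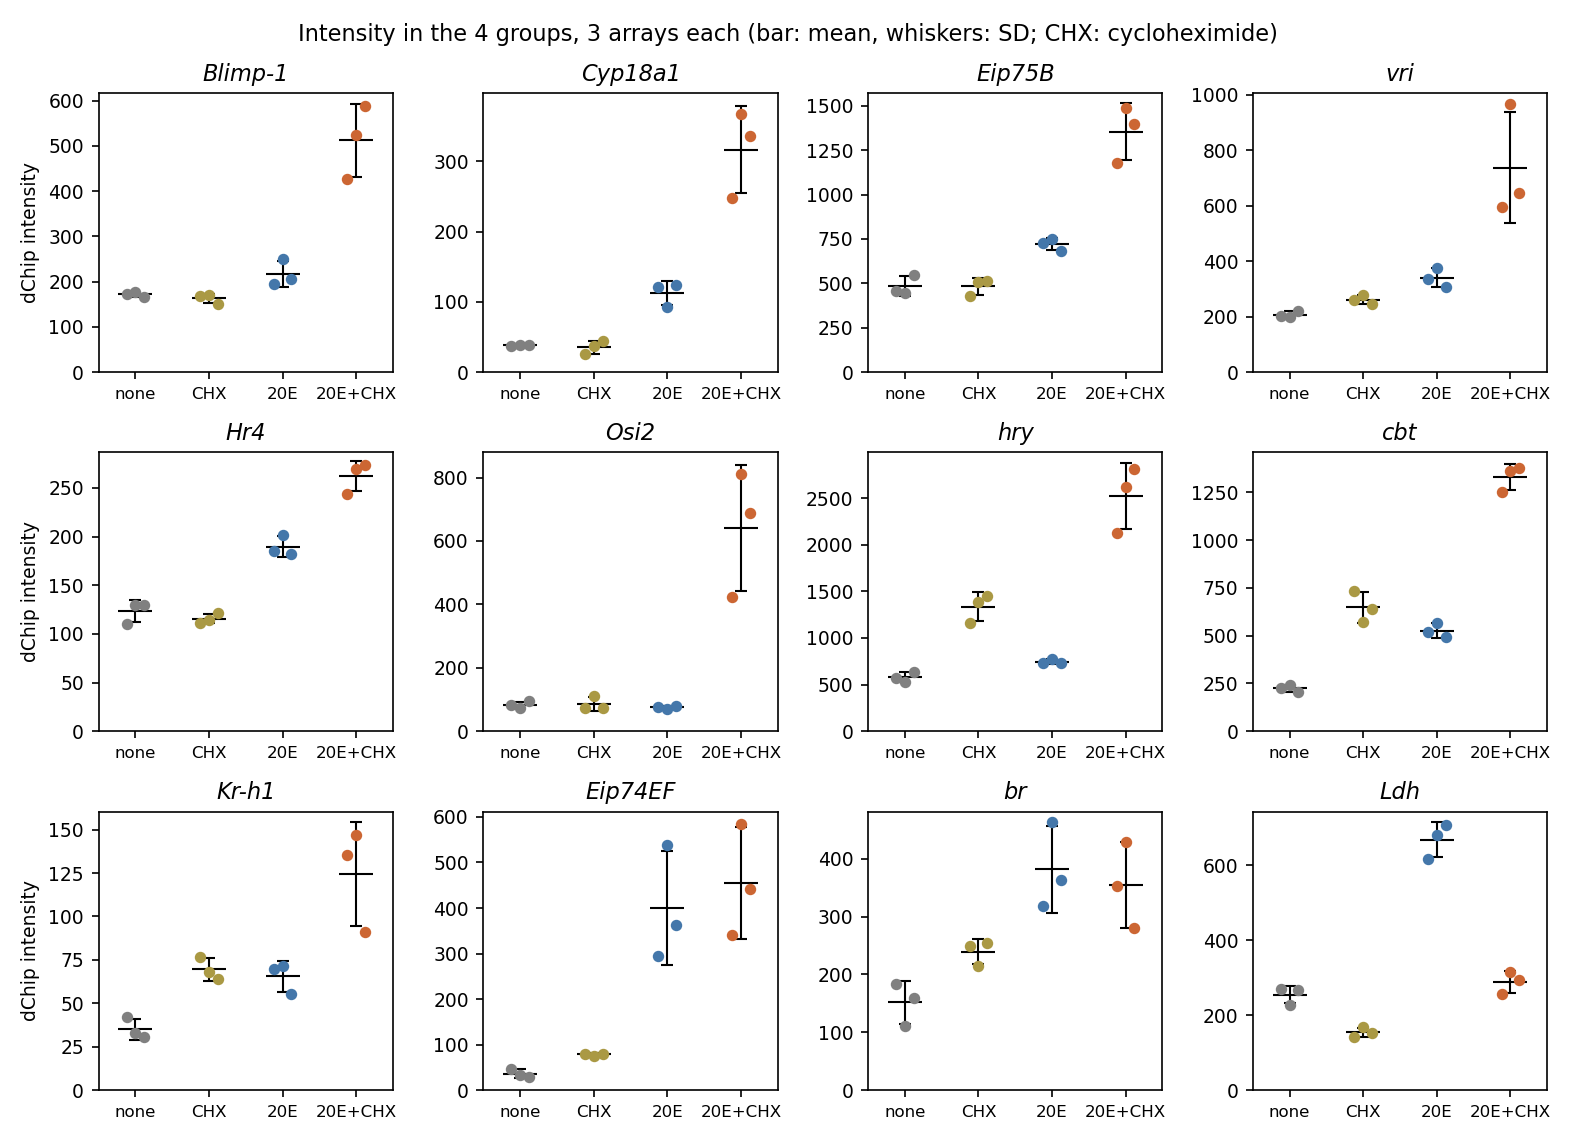
Intensity (linear axes from 0) of 12 genes in the 4 groups: no hormone (none), cycloheximide (CHX), 20E and 20E plus cycloheximide, with points for the 3 arrays, a bar at the mean and whiskers of 1 SD. Blimp-1, Cyp18a1, Eip75B, vri and Hr4 are highest with both agents and lie lowest in the 2 groups without hormone. Osi2 is high only with both agents, and its level with 20E is no higher than without hormone. hry and cbt are high in both cycloheximide groups, and Ldh is highest with 20E.

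The 11 other early regulators were not called. Eip74EF and br (broad), both classic early puff genes that encode transcription factors, had means of 399 and 381 with 20E and of 455 and 354 with both, on overlapping arrays (log2 0.20 ± 0.24 and -0.11 ± 0.20, SE). Without hormone, cycloheximide moved the same genes from 36.2 to 78.6 and from 152 to 239, and both were called higher there (log2 1.15 ± 0.24 and 0.69 ± 0.20; adjusted p = 0.0238 and 0.0805). The effect of cycloheximide with 20E and without it was not shown to differ for either gene (adjusted p = 0.263 and 0.263). Sox14, a transcription factor needed for pruning of larval neurons, was at log2 0.35 ± 0.09, with an adjusted p of 0.0798 but a fold of 1.27, under the limit. rdgBbeta had the largest fold of those not called, 1.72, with an adjusted p of 0.220 at intensities from a mean of 37.0 to 67.5.

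Of 15 nuclear receptors, Eip75B and Hr4 rose (13.3%, beside 0.981% of all probe sets) and none fell. The median log2 fold change was 0.15. EcR itself lay at 272 ± 20.8 with 20E and 281 ± 7.31 with both (SD, n = 3), and its partner usp at 100.3 ± 6.05 and 102 ± 19.1. Eip78C, which encodes another receptor of an early puff, had means of 161 and 150.03, against 45.3 with no hormone and 47.0 with cycloheximide alone. Hr96, a xenobiotic and sterol sensor, had the largest fold among those not called, 1.60 (adjusted p = 0.165), at means of 20.6 and 34.0. ftz-f1, the competence factor of the mid-prepupal period, was dim in both groups at 21.1 and 27.7.

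Among 31 late and secondary ecdysone genes, 1 rose and 1 fell, while 0.981% and 1.01% of all probe sets did. The median log2 fold change was -0.02. The decrease was that of Ldh (ImpL3), the lactate dehydrogenase gene. It was at 617, 679 and 707 with 20E and at 258, 316 and 293 with both, a 2.32-fold decrease (log2 fold change -1.21 ± 0.10 (SE), adjusted p = 1.11e-04). It lay at 255 ± 22.9 with no hormone and at 154 ± 12.6 with cycloheximide alone (SD, n = 3). Without hormone the decrease was also called (log2 -0.72 ± 0.10, adjusted p = 0.00208), and the effects were not shown to differ (adjusted p = 0.214). ImpL2, which encodes a secreted insulin antagonist, rose 1.51-fold, from 687, 829 and 776 to 1159, 1070.05 and 1220.2 (adjusted p = 0.0174). The glue gene Sgs7 of the salivary gland was near the top of the scale in both groups, at 13005 and 13269.9. Of the 31 genes, 10 had means under 50 in both groups, nearly all of them members of the Eig71E cluster. Some genes of the list were no higher with 20E than with no hormone, such as Uro (124 and 155) and Sgs7 (13005 and 13970.5). Others were higher, such as ImpE2 (786 and 536). Which of these genes 20E raised in these cultures was not tested here, so the few calls do not measure their need for new protein.

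The Enhancer of split and Bearded families, which are targets of Notch signaling, had the largest share of increases of the 39 lists. Of 13 measured genes, 8 rose (61.5%, beside 0.981% of all probe sets) and 0 fell. The median log2 fold change of the 13 was 0.74, and 5 of the 8 remained called whichever array was left out. E(spl)mbeta-HLH was at 521, 593 and 463 with 20E and at 3439.7, 3191 and 3639.9 with both, a 6.54-fold increase (log2 fold change 2.71 ± 0.11 (SE), adjusted p = 1.94e-07) and the smallest adjusted p of the comparison. E(spl)m4-BFM, a Bearded-type antagonist of the ubiquitin ligase Neuralized, was at 368, 276 and 193 and at 1099, 677 and 1113 (3.48-fold; log2 fold change 1.80 ± 0.23 (SE), adjusted p = 0.00296). Here replicate 2 with both agents lay well below the other two, though above every 20E array. The same was true of E(spl)m7-HLH, another repressor of the complex, at 190.5, 169 and 146 and at 597, 339.8 and 687 (3.10-fold; log2 fold change 1.63 ± 0.23 (SE), adjusted p = 0.00511). E(spl)mdelta-HLH rose 2.57-fold from a mean of 53.3 to 138 (adjusted p = 3.42e-04).

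The remaining increases of this group were smaller: E(spl)malpha-BFM, E(spl)m2-BFM, E(spl)m3-HLH and E(spl)m6-BFM had log2 fold changes of 1.38, 1.26, 0.74 and 0.48. E(spl)m5-HLH, Brd, Tom and Kaz-m1 were between log2 -0.24 and 0.11 and not called. The probe sets of Ocho disagreed: the brighter one, which stood for the gene in the list, was not called at log2 -0.18, and the dimmer one rose at 0.56. With cycloheximide alone 7 of the 13 rose, E(spl)mbeta-HLH by log2 2.97 ± 0.11 and E(spl)m4-BFM by 2.06 ± 0.23 (SE), and for no gene of the list was the effect called different with 20E. Of 11 genes of the Notch pathway itself only emc, an inhibitor of proneural proteins, rose, from 435, 536 and 483 to 861, 965 and 812 (1.81-fold, adjusted p = 0.00512). That is 9.09% of the 11, beside 0.981% of all probe sets. With cycloheximide alone emc rose from a mean of 332 to 1088 (log2 1.72 ± 0.12 (SE), limma adjusted p = 2.99e-05). Its difference of both effects was not called (adjusted p = 0.120). numb was also called higher with cycloheximide alone (log2 0.70). Notch and Delta were not matched to a probe set here.

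Immediate early and stress kinase genes formed a further group of increases. Of 18 measured genes, 5 rose (27.8%) and 1 fell (5.56%), with a median log2 fold change of 0.13. Over all probe sets 0.981% were called higher and 1.01% lower. With cycloheximide alone 8 of the 18 rose, beside 3.55% of all probe sets. Gadd45, a stress-induced activator of MAP kinase kinase kinases, was at 337, 356 and 326 with 20E and at 1239, 1398 and 1031 with both, a 3.58-fold increase (log2 fold change 1.84 ± 0.17 (SE), adjusted p = 3.05e-04). Ets21C, an ETS-domain factor that responds to stress and JNK signaling, was at 145, 166 and 134 and at 359, 442 and 424 (2.75-fold; log2 fold change 1.46 ± 0.13 (SE), adjusted p = 2.34e-04). Both kept their calls whichever array was left out. kay, the Drosophila Fos subunit of AP-1, rose 1.74-fold (from 196 to 339.7), puc, a JNK phosphatase, rose 1.59-fold (from 213 to 338), and Mmp1, a matrix metalloproteinase and JNK target, rose 1.70-fold (from 509 to 848). The call for kay was lost without 20E replicate 3 and that for Mmp1 without 20E replicate 1 or 3 or 20E plus cycloheximide replicate 3, with adjusted p over all alternatives of up to 0.105 and 0.197. The call for puc also did not remain in every fit with 1 array left out. Jra, the Jun subunit, was at 355 and 395 and not called (adjusted p = 0.621), and with cycloheximide alone it was called higher (log2 0.79 ± 0.12), though the difference of both effects was not called (adjusted p = 0.208). The single decrease was that of Irbp18, a CCAAT enhancer-binding protein homolog, from 48.2 to 33.2, both under 50.

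Antimicrobial peptides, which the fat body secretes in response to infection, fell in part. Of 14 measured peptide genes, 5 fell (35.7%, beside 1.01% of all probe sets) and 0 rose. The median log2 fold change of the 14 was -0.84, with none above 0. CecA1 was at 2089, 4039 and 2369.8 with 20E and at 459.5, 1012 and 716 with both, a 3.92-fold decrease (log2 fold change -1.97 ± 0.30 (SE), adjusted p = 0.00736), and CecA2 at 1835, 3499.8 and 2131 and 417, 901 and 602 (3.93-fold; log2 fold change -1.97 ± 0.29 (SE), adjusted p = 0.00704). The probe sets of CecA1, CecA2 and CecC are of the type shared within a gene family, and their signals may not be separable. AttD fell 2.72-fold, with an adjusted p of 0.0607 and a 20E replicate 2 (813, 2389 and 1004) far above its replicates. CecB and CecC fell 1.90-fold and 1.69-fold. A second probe set of CecC was not called (log2 -0.73, limma adjusted p = 0.231). CecA1 and CecA2 remained called whichever array was left out, but AttD, CecB and CecC were not called without 20E plus cycloheximide replicate 1 or 3, AttD and CecC also not without 20E replicate 3, and CecC not without 20E replicate 2, with adjusted p over all alternatives of up to 0.221, 0.172 and 0.142. Def, a defensin, had a large difference of means, 1840.1 against 759, that was not called (log2 -1.29 ± 0.37, adjusted p = 0.127), and AttA and AttB were at log2 -0.03 and -0.01. With cycloheximide alone 5 of the 14 fell as well, CecA1 from a mean of 4845 to 900.1.

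Of 18 Toll and Imd pathway genes, 3 rose (16.7%) and 0 fell, while 0.981% and 1.01% of all probe sets did. Rel, the NF-kappaB factor of the Imd pathway, was at 499, 893 and 635 with 20E and at 1114, 1839 and 1546 with both (2.24-fold; log2 fold change 1.16 ± 0.21 (SE), adjusted p = 0.0204), and remained called whichever array was left out, though not in a fit of the 6 arrays alone (adjusted p = 0.143). pirk, an inhibitor of the same pathway, rose from 221, 193 and 189 to 263, 285 and 299.5 (1.41-fold, adjusted p = 0.0129), and lay at 144 with no hormone and 139.9 with cycloheximide alone. PGRP-LA, a peptidoglycan recognition protein, rose 1.46-fold at an adjusted p of 0.0982, and its second probe set was not called. This call remained only without 20E replicate 2 or without 20E plus cycloheximide replicate 3.

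The delta class of glutathione transferases, enzymes that conjugate glutathione to toxic compounds, fell in more of the measured genes than not. Of 11 measured genes, 6 fell (54.5%, beside 1.01% of all probe sets) and 0 rose. The median log2 fold change of the 11 was -0.45, with none above 0, and all 6 remained called whichever array was left out. GstD2 was at 1137, 959 and 736 with 20E and at 295, 301 and 270.2 with both, a 3.22-fold decrease (log2 fold change -1.69 ± 0.17 (SE), adjusted p = 5.53e-04). GstD5 was at 379.8, 244 and 175 and at 74.2, 73.4 and 79.0 (3.35-fold; log2 fold change -1.75 ± 0.23 (SE), adjusted p = 0.00367), with 20E arrays that spread widely and cycloheximide arrays within 6 units of each other. GstD9 was at 272, 278 and 261 and at 162, 179 and 165 (1.60-fold; log2 fold change -0.68 ± 0.07 (SE), adjusted p = 4.09e-04). GstD3 and GstD4 fell 2.10-fold and 2.08-fold, and GstD10 by log2 0.45. GstD1, the most intense of the class at 5635 and 4889.6, was not called with 20E (log2 -0.20 ± 0.10, adjusted p = 0.417) and was called lower with cycloheximide alone (log2 -0.43 ± 0.10, adjusted p = 0.0387), with no difference called between both effects (log2 0.23 ± 0.15, adjusted p = 0.478). These genes are close paralogs, and the part of cross-hybridization in their signals was not tested. With cycloheximide alone 9 of the 11 fell, GstD2 from a mean of 1978 to 347.

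Of 12 epsilon class transferases, GstE1 fell 2.20-fold (from 2430.4, 1303 and 1451 to 771, 759.5 and 741, adjusted p = 0.0257) and GstE7 1.42-fold. These are 16.7% of the 12, beside 1.01% of all probe sets. The call for GstE1 was lost without 20E plus cycloheximide replicate 3 and that for GstE7 without 20E replicate 1 or 3 or 20E plus cycloheximide replicate 1 or 3. Among 13 genes of redox defence, ref(2)P, the Drosophila p62 adaptor of selective autophagy, fell from 818, 748 and 736 to 424, 402 and 388 (1.89-fold; log2 fold change -0.92 ± 0.12 (SE), adjusted p = 0.00398), and Cat, the catalase, fell 1.39-fold (adjusted p = 0.0677). Both together are 15.4% of the 13, beside 1.01% of all probe sets. The call for ref(2)P remained whichever array was left out, and that for Cat was lost without 20E replicate 2 or 20E plus cycloheximide replicate 1 or 3. Keap1 and cnc, the regulators of this response, were at log2 0.32 ± 0.13 and 0.16 ± 0.06 and were not called. With cycloheximide alone GstE1, GstE7 and ref(2)P were called lower as well, at log2 -1.47, -0.76 and -0.43 (limma adjusted p = 0.00278, 0.00525 and 0.0761). Cat was not called there (log2 -0.20). The difference of both effects was called for none of these genes. Of 83 cytochrome P450 genes, Cyp12c1, Cyp4g1 and Cyp6d5 fell (3.61%, beside 1.01% of all probe sets) and Cyp18a1 rose. The decreases were by 0.49, 0.52 and 0.52 on the log2 scale. The 3 decreases were all lost without 20E replicate 2 or without 20E plus cycloheximide replicate 3 (adjusted p over all alternatives of up to 0.151, 0.225 and 0.303).

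Genes of protein synthesis, folding and turnover lay slightly lower with cycloheximide, mostly without passing the test. The median log2 fold changes were -0.24 for 15 translation factors (0 called), -0.24 for 16 genes of the secretory pathway and unfolded protein response (2 fell), -0.20 for 16 heat shock proteins and chaperones (1 fell), -0.19 for 17 aminoacyl-tRNA synthetases (0 called), and -0.17 for 42 proteasome genes (2 fell), beside -0.005 over all probe sets. In the absence of 20E the medians of the same lists were 0.03, -0.01, -0.02, -0.06 and 0.00, with no decrease called in any of them. The difference between both effects was called for 0 genes of each of these lists. With 20E present 7 of the 15 translation factors and 7 of the 17 synthetases were lower at an unadjusted p under 0.05, and none by SAM. So were 9 of the 16 secretory pathway genes, 5 of the 16 heat shock genes and 12 of the 42 proteasome genes. SAM called 2, 3 and 1 of the genes of these last lists lower. At the unadjusted limit 0 genes of any of these lists were higher. Of all 13966 probe sets, 1947 had such a p in either direction, and 1.01% were called lower. SsRbeta, a subunit of the translocon-associated signal sequence receptor, was at 477, 578 and 524 with 20E and at 319.8, 336 and 245 with both (1.76-fold lower; log2 fold change -0.82 ± 0.15 (SE), adjusted p = 0.0203), against means of 396 and 381 without hormone. Sec61alpha, the channel of the translocon, fell 1.32-fold (adjusted p = 0.0790) and Hsc70-5, a mitochondrial chaperone, fell 1.49-fold (adjusted p = 0.0535). The proteasome ATPases Rpt6 and Rpt4 fell 1.43-fold and 1.31-fold, at adjusted p of 0.0844 and 0.0886. Of these 5 genes only SsRbeta remained called whichever array was left out. Sec61alpha was called only without 20E plus cycloheximide replicate 2, and Hsc70-5, Rpt6 and Rpt4 were not called without 20E replicate 2 or 3 or without 20E plus cycloheximide replicate 3 (adjusted p over all alternatives of up to 0.184, 0.276 and 0.282).

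Ribosome biogenesis contributed 3 decreases of 25 genes (12%, beside 1.01% of all probe sets), with a median log2 fold change of -0.05. Nopp140, a nucleolar chaperone of small nucleolar ribonucleoproteins, was at 85.7, 92.0 and 97.2 with 20E and at 60.3, 59.3 and 53.7 with both (1.59-fold lower, adjusted p = 0.0138), and remained called whichever array was left out. NHP2 and Non1 each fell 1.34-fold, but neither was called without 20E replicate 2 or 3 or without 20E plus cycloheximide replicate 3, and a second probe set of Non1 had a log2 fold change of 0.32 and was not called. Of 38 cytoplasmic ribosomal proteins RpL24-like and RpS29 fell (median -0.10), the latter not without 20E replicate 1, 2 or 3 or 20E plus cycloheximide replicate 3, and of 64 mitochondrial ones 0 were called (median 0.01). Of 99 cuticle protein genes, 20 genes of fat storage, 15 of pteridine synthesis and 11 of tubulins and actins, 0 were called in either direction by limma. At an unadjusted p under 0.05, which 1947 of all 13966 probe sets had, 5 cuticle genes were higher and 2 lower. At the same limit 1 mitochondrial ribosomal gene was higher and 3 were lower, and 3 fat storage genes were higher and 1 was lower. Further, 1 tubulin or actin was higher and 1 lower, and 0 pteridine genes were either. SAM called 1 fat storage gene lower and none of the others.

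Other signaling and metabolic lists had 1 or 2 calls each, while 0.981% of all probe sets were called higher and 1.01% lower. Among 21 genes of Dpp, Hedgehog, Wingless and JAK/STAT signaling, en, the engrailed homeobox gene, rose 1.58-fold from 63.4, 64.3 and 59.5 to 95.1, 94.3 and 107 (adjusted p = 0.00296), and bi (optomotor-blind), a T-box factor, rose 1.31-fold from 193, 175 and 150.3 to 239, 204 and 237 (adjusted p = 0.0967). Among 17 genes of EGFR and Ras signaling, Egfr fell from 191 to 140.4 (adjusted p = 0.0798) and aos (argos), a secreted inhibitor of the receptor, rose from 22.0 to 28.7 (adjusted p = 0.0811). A second, dimmer probe set of Egfr was under the fold limit at log2 -0.32 and not called. For Mkp3 of the same list a dimmer probe set was called higher (log2 0.41), and the brighter one, which stood for the gene, was not called. The calls for bi, aos and Egfr were lost without 20E replicate 2 or 3 and without 20E plus cycloheximide replicate 1 or 3, and that for Egfr also without 20E replicate 1 (adjusted p of up to 0.318 for bi and 0.256 for Egfr over all alternatives). The call for en remained whichever array was left out. Among 16 glycolytic and gluconeogenic genes, Ldh fell and Pepck1, the phosphoenolpyruvate carboxykinase of gluconeogenesis, rose 1.88-fold from 2399.5, 1456 and 1823 to 4130.2, 2773 and 3708 (adjusted p = 0.0314), a call lost without 20E replicate 3 and without 20E plus cycloheximide replicate 1 or 3. Sam-S, the S-adenosylmethionine synthetase, was the 1 decrease among 15 genes of polyamine and amino acid metabolism (log2 -0.61 ± 0.14, adjusted p = 0.0625), and was not called without 20E replicate 2 or 3 or 20E plus cycloheximide replicate 3 (adjusted p of up to 0.230).

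Of 15 autophagy genes only Pi3K59F, the lipid kinase Vps34, was called lower (6.67%). Of 20 replication and mitosis genes only RPA1 fell (5%). Of 48 respiratory chain genes only ATPsynbeta fell (2.08%), at means of 55.4 with 20E and 39.4 with both. Over all probe sets 1.01% were called lower and 0.981% higher. Each of the 3 log2 changes was at most 0.49 in size. All 3 calls were lost without 20E replicate 2 or 3 and without 20E plus cycloheximide replicate 1 or 3, that of Pi3K59F also without 20E replicate 1, and a second probe set of RPA1 was not called at log2 0.05. None of 13 cell death genes was called with 20E present. Of the 13, 1 had an unadjusted p under 0.05, beside 1947 of all 13966 probe sets, and SAM called 0. With cycloheximide alone 5 of them, Dcp-1, Dronc, Strica, hid and rpr, rose. The difference of both effects was called for none of the 5 (adjusted p from 0.271 to 0.833). The lists of insulin and TOR signaling (17 genes), matrix remodelling (18), mRNA decay (18), circadian clock (10) and ecdysteroid metabolism (11) each had 1 increase, those of ImpL2, Mmp1, brat, vri and Cyp18a1, which other lists also hold. Of 20 cyclins and cell cycle switches only CycG rose.

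**Figure D3:**
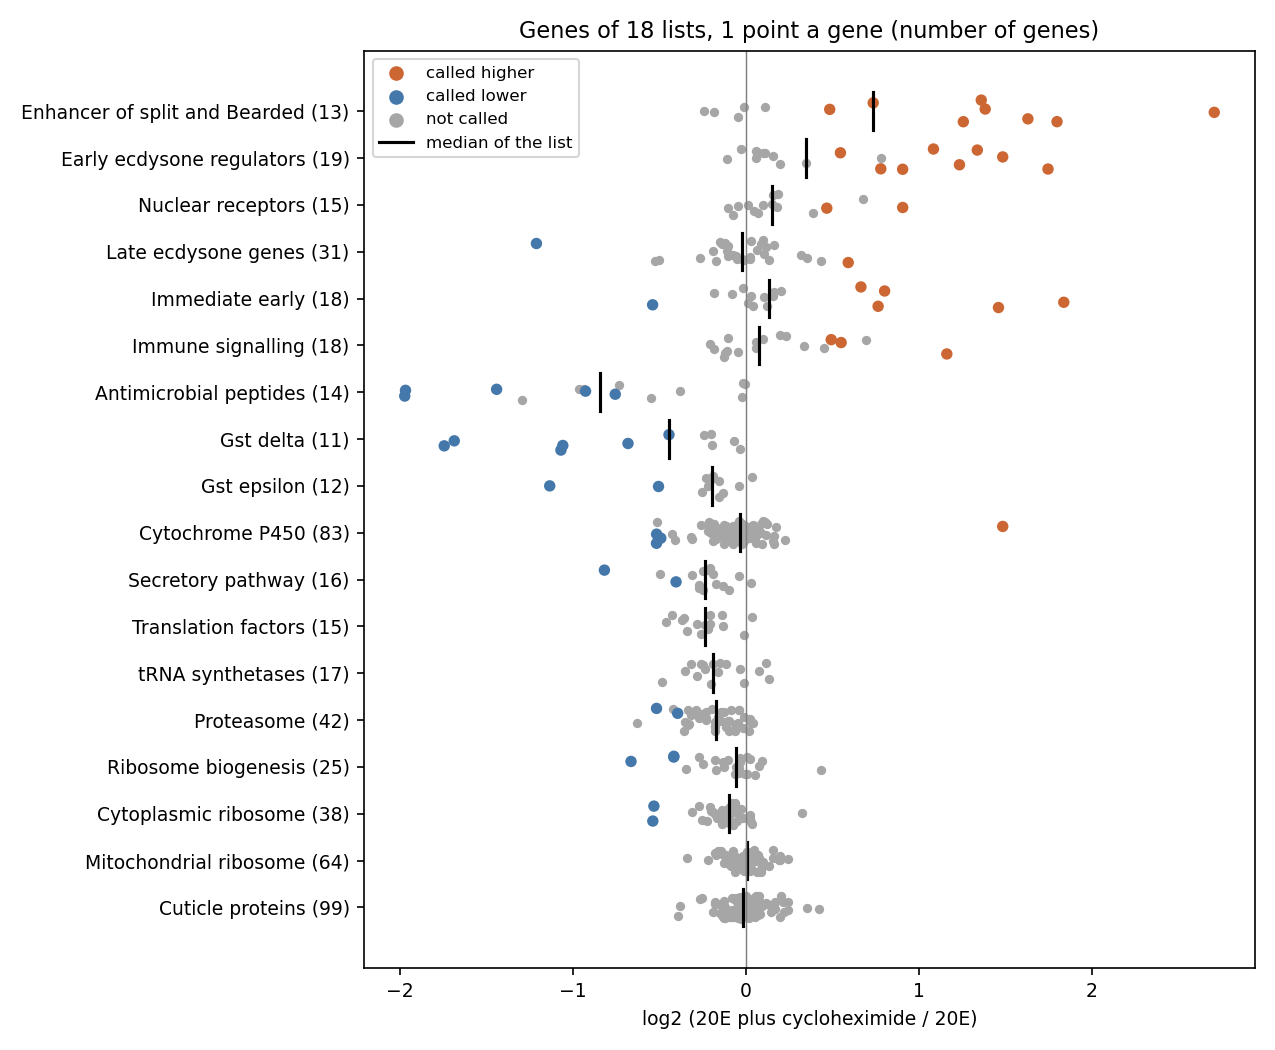
Log2 ratio of 20E plus cycloheximide to 20E for the genes of 18 lists, 1 point a gene, orange for genes called higher, blue for called lower and grey for not called, with a black line at the median of each list and the number of genes in parentheses. The Enhancer of split and Bearded list has its median at 0.74 and the antimicrobial peptides at -0.84, while the cuticle proteins and mitochondrial ribosomal proteins stay near 0.

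Further large changes fell outside these groups. Osi2 was at 75.1, 71.2 and 80.1 with 20E and at 423, 813 and 688 with both, an 8.20-fold increase (log2 fold change 3.04 ± 0.22 (SE), adjusted p = 4.61e-05), and its means without hormone were 83.2 with no agent and 85.9 with cycloheximide. All 9 arrays of the other groups lay at or below 112, and none of the other 23 Osiris genes was called, their log2 fold changes lying between -0.17 and 0.19. CG8483 rose 3.10-fold, from 278, 497 and 342 to 1151, 1249 and 976 (adjusted p = 0.00296). This call and that of Osi2 remained whichever array was left out.

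CG7778 fell 2.70-fold, from 444, 1077 and 652 to 255, 246 and 253 (adjusted p = 0.0152), and CG17105 fell 2.57-fold, from 607, 537 and 326 to 177, 222 and 159.7 (adjusted p = 0.0730). CG7778 remained called whichever array was left out, but not in a fit of the 6 arrays alone (adjusted p = 0.114), and CG17105 was called only without 20E replicate 3 or without 20E plus cycloheximide replicate 2. Pgant3, a glycosyltransferase that starts O-linked glycosylation, fell 2.05-fold (adjusted p = 0.0456) to 92.2, against 94.4 with no hormone, and was not called without 20E plus cycloheximide replicate 1 or 3. The probe set with the largest decrease of all has no gene name here and was singled out after its values were seen. It was at 96.4, 220.2 and 44.6 with 20E and at 22.6, 22.4 and 15.5 with both (log2 -2.30 ± 0.50, adjusted p = 0.0513).

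The same effect was then measured without hormone. Cycloheximide alone raised 496 probe sets (3.55%) and lowered 121 (0.866%). Of the 137 increases with 20E, 92 were also called higher with cycloheximide alone, which is 67.2% of the first list and 18.5% of the second, 40 were not called and 5 were called lower. Of the 141 decreases with 20E, 27 were also called lower, 19.1% and 22.3% of the lists, 113 were not called and 1 was called higher. The sign without hormone was the same for 118 of the 137 increases and 102 of the 141 decreases. The median log2 fold change of the 137 was 0.65 with 20E and 0.62 without it, and that of the 141 was -0.50 and -0.11. Chosen by their call with cycloheximide alone instead, the 496 had a median of 0.59 without 20E and 0.24 with it, and the 121 had medians of -0.47 and -0.11. The summed blood cell markers, which overlapped between the groups with 20E, lay between 776 and 843 with no hormone and between 735 and 748 with cycloheximide alone, and the part of this in the second comparison was not tested. Over all probe sets, which are not independent, both effects had a Pearson correlation of 0.28.

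**Figure D4:**
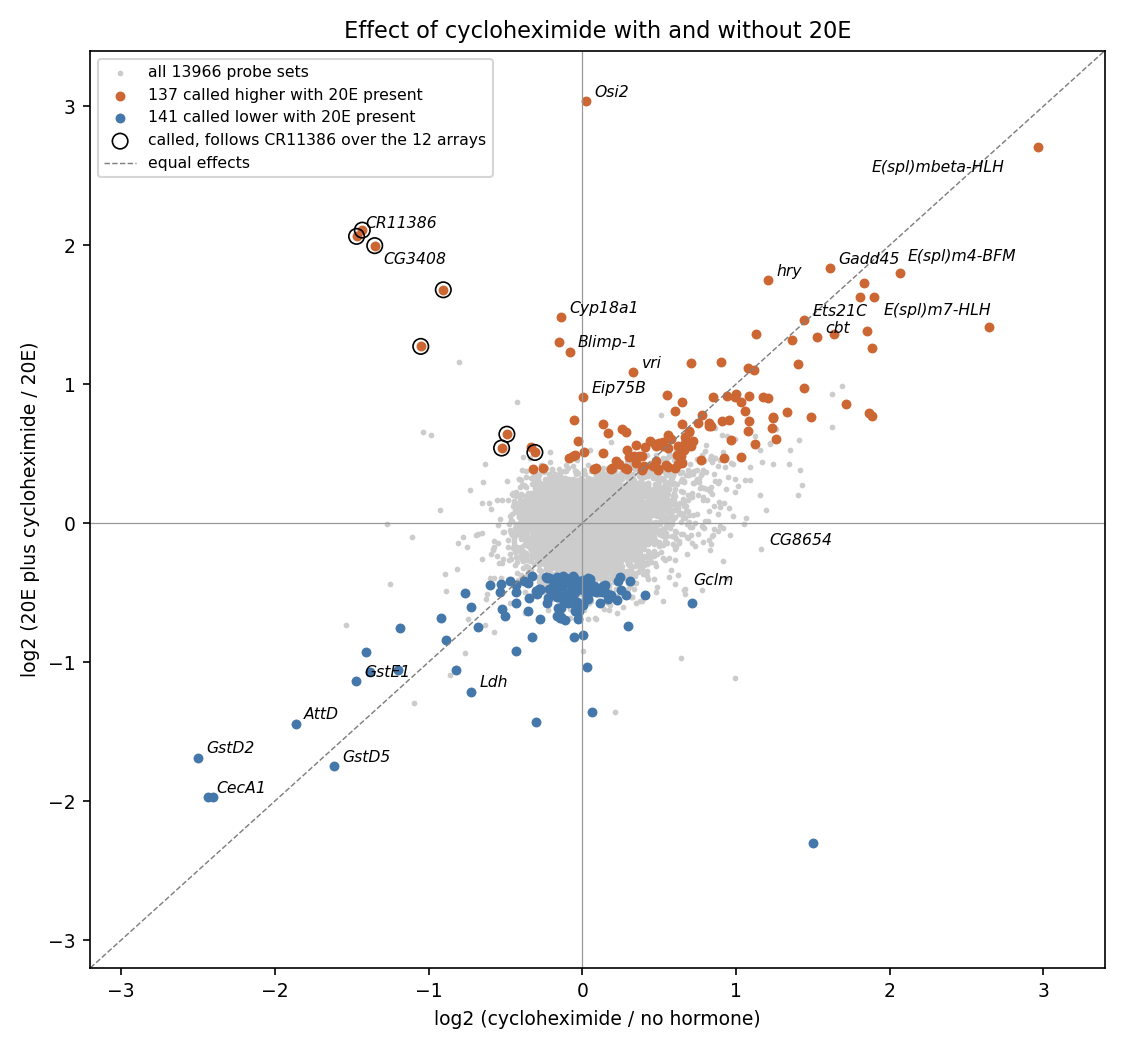
Log2 effect of cycloheximide in the presence of 20E (vertical axis) against that in its absence (horizontal axis) for all 13966 probe sets (grey), with the 137 called higher in orange, the 141 called lower in blue, the called probe sets that follow CR11386 circled, and equal effects on the dashed line. E(spl)mbeta-HLH, hry and cbt lie high on both axes, Osi2, Cyp18a1, Blimp-1 and Eip75B lie high near 0 on the horizontal axis, and the circled points lie left of 0.

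The difference between both effects was called for 19 probe sets (0.136%; adjusted p under 0.10, no fold limit), 11 with a higher effect in the presence of 20E and 8 with a lower one, while 2050 had an unadjusted p under 0.05. With the replicate number as a block 56 were called. Osi2 had the difference with the smallest adjusted p, log2 3.01 ± 0.31 (adjusted p = 0.00842), and was called in each of the 12 fits with 1 array left out. Those fits gave between 1 and 274 calls, the latter without 20E plus cycloheximide replicate 2 and the former without no hormone replicate 2. In the other direction, CG8654 was raised by cycloheximide alone, from 40.6, 34.7 and 35.7 with no hormone to 75.3, 90.2 and 83.4, but was at 36.1, 34.8 and 39.7 with 20E and 31.9, 38.0 and 27.9 with both, a difference of log2 -1.35 ± 0.16 (adjusted p = 0.0198) called in 11 of the 12 fits. CG11529 rose with cycloheximide alone (log2 0.72 ± 0.13) and fell in the presence of 20E (log2 -0.58 ± 0.13), the one probe set among the 141 called in the opposite direction, and its difference of -1.29 (adjusted p = 0.0383) was called in 6 of the 12 fits. Gclm, the regulatory subunit of glutamate-cysteine ligase, rose with cycloheximide alone from 285, 265 and 288 to 581, 348 and 429 and was at 303, 291 and 282 with 20E and 221, 218 and 191 with both (difference -1.14, adjusted p = 0.0942). Its difference was called in only 3 of the 12 fits.

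A set of probe sets among the increases shared an unusual pattern over the arrays. CR11386, one of the largest increases, was at 198, 207 and 189.5 with 20E and at 814, 698 and 998 with both (4.18-fold; log2 fold change 2.06 ± 0.48 (SE), adjusted p = 0.0607), at 864, 985 and 643 with no hormone, and at 132, 818 and 239 with cycloheximide alone. It was thus low on 5 arrays, the 3 of 20E and replicates 1 and 3 of cycloheximide, whereas the other 7 were high. CG3408, at 21.9, 20.6 and 32.5 with 20E and 94.3, 70.9 and 139.6 with both, was low on the same arrays. In all, 14 other probe sets had a correlation over 0.9 with CR11386 across the 12 arrays, and 7 of them were called higher with 20E present, among them CG3408, asRNA:CR11538, CycG, Ost48 and Septin2. With cycloheximide alone 5 of the 8 called probe sets were called lower, and these are the 5 increases called in the opposite direction without hormone. CR11386 was called only with 20E plus cycloheximide replicate 2 left out or all arrays in, CG3408 was not called without 20E replicate 2 or 20E plus cycloheximide replicate 3, and CycG was not called without 20E plus cycloheximide replicate 3. Of the 15 probe sets, 8 fell within a run of 401 consecutive probe set numbers of the array that holds 2.87% of all probe sets, a comparison made after the pattern was seen. The part of single arrays in these increases was not tested. Without these 15 probe sets there were 129 increases and 140 decreases, and a difference of effect was called for 4 probe sets, Blimp-1, Osi2, CG8654 and CG11529.

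**Figure D5:**
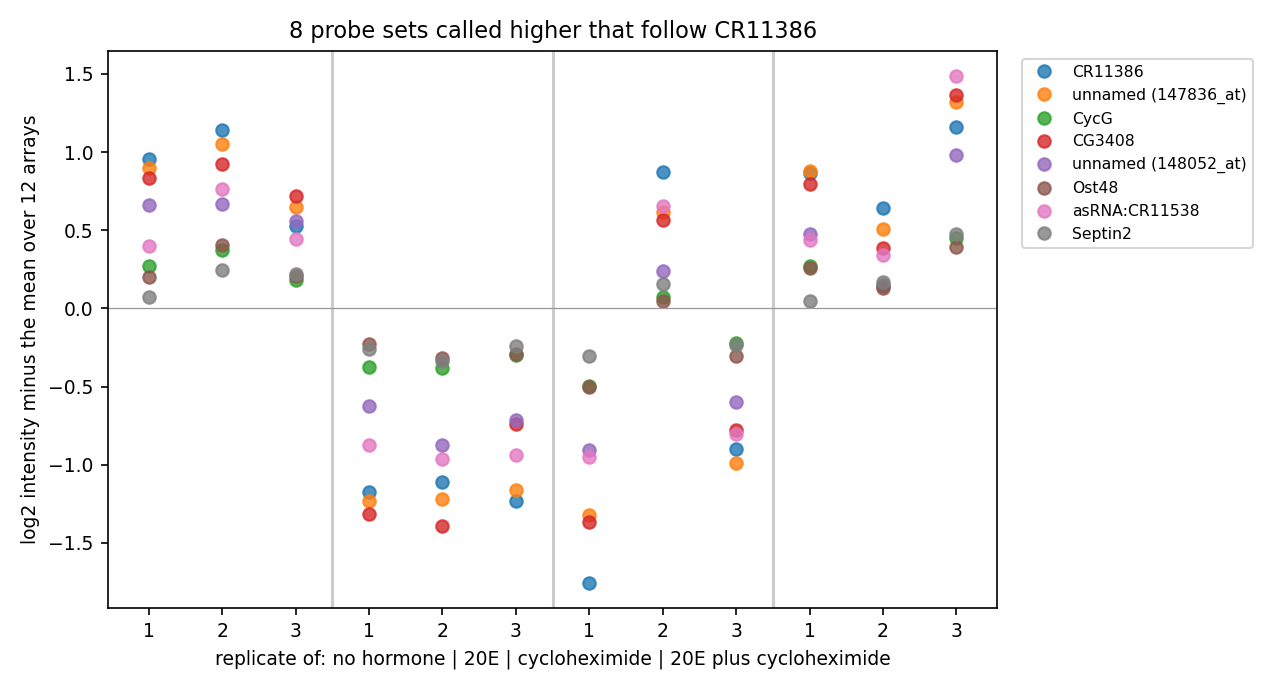
Log2 intensity minus its mean over the 12 arrays (vertical axis) for the 8 probe sets called higher with 20E plus cycloheximide that follow CR11386, 1 symbol colour each, on the 3 replicates of the 4 groups (horizontal axis). All 8 lie below 0 on the 3 arrays of 20E and on cycloheximide replicates 1 and 3, and above 0 on the others.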

How the data were processed

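Total RNA from the 12 cultures was labelled with biotin and hybridized to Affymetrix Drosophila Genome Arrays, 1 array a culture. The authors scaled the arrays and reduced the probe pairs to 1 intensity per probe set in dChip, and the deposited intensity values are linear and were used as deposited. The baseline array and the use of mismatch probes are not given in the sources used here. Intensities were raised to a floor of 10 and taken to log2, so that changes of genes near the floor are understated. limma 3.58.1 (R 4.3.3) was fitted to the 4 groups of 3 arrays with an intensity trend in eBayes, two-sided, with Benjamini-Hochberg adjustment over 13966 probe sets, and tested 20E plus cycloheximide against 20E, cycloheximide against no hormone, and the interaction, which is the first effect minus the second. The triplicates were separate cultures, so p-values measure the spread between cultures, and 3 arrays a group limit the precision. The tests were checked on simulated data. The labels number the replicates without saying what a number shares. In the data same-numbered arrays of no hormone and cycloheximide deviated together, which the numbers of 20E and 20E plus cycloheximide did for 2 of 3 pairs.

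Of the probe sets, 12442 had 1 gene name in the platform annotation, 198 more were named from gene lists that accompany the study (77 and 121), 327 had several names and 999 none. Symbols were set against RefSeq genes of the release 6 assembly, which was used for names only. Where several probe sets measure a gene of a list, the brightest stood for it unless said otherwise. The named genes are the 12 largest increases and decreases with 1 gene name and no overlap of arrays, up to 4 called genes each way from each of 39 lists, all members of the 3 ecdysone lists, and 6 differences each way. The comparison, the gene lists and the marker lists were chosen with earlier results of these data known. Alternatives were another floor or pseudocount, quantile or median scaling, leaving out dim probe sets, other thresholds, a fit of the 6 arrays alone, no trend, a replicate block, each array left out, and the SAM statistic of the study's methods.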

Additional observations from a re-analysis of the deposited data

Results flagged for a closer look

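The effect of cycloheximide in the presence of 20E differed from its effect in the absence of 20E, by the interaction term of the limma fit at an adjusted p under 0.10, for 19 probe sets. The effect was higher with 20E, on the log2 scale, by 3.35 for CG3408, 3.01 for Osi2, 1.62 for Cyp18a1, 1.32 for Blimp-1, 1.13 for CycG, 1.07 for Ost48 and 0.90 for Eip75B. CG3408, CycG and Ost48 are among the probe sets that follow CR11386. The effect was lower with 20E, with differences of -1.35 for CG8654, -1.29 for CG11529, -1.14 for Gclm, -0.90 for CG30344, -0.80 for Dr and -0.73 for Ppt2. Each of these differences is between 4 groups of 3 arrays. Those of Osi2, Blimp-1 and CG8654 were called in at least 11 of the 12 fits with 1 array left out. That of CG11529 was called in 6 and that of Cyp18a1 in 4. Those of Eip75B, Gclm and Ppt2 were called in 3, and those of CG3408, CycG, Ost48, CG30344 and Dr in 2.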

How the results depend on the processing

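Increases and decreases with 20E numbered 137 and 141. They numbered 159 and 163 with a floor of 1, 98 and 67 with a floor of 50, 78 and 37 in a fit of the 6 arrays alone, 99 and 64 at an adjusted p under 0.05, and 30 and 14 at 2-fold or more. Leaving out 1 array gave 68 to 147 increases and 33 to 246 decreases. The SAM statistic called 152 and 179, of which 132 and 135 were among the calls reported, and the fit of 6 arrays shared 76 and 33. The counts with cycloheximide alone, 496 and 121, fell to 346 and 72 with a floor of 50, 372 and 76 at an adjusted p under 0.05, and 61 and 16 at 2-fold or more, and were 681 and 396 with no fold limit. They ranged from 241 to 543 and from 59 to 206 with 1 array left out, and were 62 and 15 without cycloheximide replicates 1 and 3, an alternative chosen after seeing the data. The overlaps of 92 and 27 calls ranged from 46 to 102 and from 15 to 28 with 1 array left out, were 51 and 11 in the fits of 6 arrays, 70 and 16 with a floor of 50, and 39 and 7 without cycloheximide replicates 1 and 3. The 19 differences between effects became 30 with a floor of 1, 34 with median scaling, 4 at an adjusted p under 0.05, 4 without the probe sets that follow CR11386, 0 without cycloheximide replicates 1 and 3, and 1 to 274 with 1 array left out.

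With the replicate number as a block (replicate block) there were 204 increases, 213 decreases, 56 differences, and 140 and 39 overlaps, and all 137 and 141 calls reported were kept. The deviations of same-numbered arrays from their group means had correlations of 0.39, 0.55 and 0.09. Each 20E array correlated best with its own number, 20E replicate 3 at 0.09 against -0.05 and -0.04 for the other numbers. Seen from the other side, replicate 3 of 20E plus cycloheximide correlated best with 20E replicate 1 (0.23). The numbers were not taken to pair these cultures, and whether they do was not tested. Between no hormone and cycloheximide, same-numbered arrays had correlations of 0.41, 0.21 and 0.29, each above those of other numbers, and the block gave 584 increases and 163 decreases there. The fit reported has no block, also for this comparison and for the difference of both effects.

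Of 73 called named genes, 40 lost the call under at least 1 alternative other than a left-out array and 38 without some single array, and none changed sign. Of 57 not called, 6 gained a call and 19 changed sign, all with a log2 change of at most 0.13. The cause of these changes was not tested. Dim probe sets limit the rest: 313 of the intensities lay under the floor, and close paralogs may share signal.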
